A study of Mus musculus with 12 samples.

Results

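Gene expression in mouse bone marrow cultures that carried MEIS1 without its homeodomain (MEIS1-deltaHD) was compared with that in cultures that carried the empty vector (control). The comparison rested on 3 arrays of each kind, chosen by their sample titles, which are 6 of the 12 arrays of the study. All groups, the control included, were made from the same kind of starting cells, bone marrow cells of (C57Bl/6Ly-Pep3b x C3H/HeJ) F1 mice treated with 5-fluorouracil, infected with the ND13-GFP or ND13pac virus for the leukaemia fusion gene NUP98-HOXD13 and kept for 4 weeks in liquid culture with interleukin-6 (10 ng/ml), interleukin-3 (6 ng/ml) and stem cell factor (100 ng/ml). A second retrovirus was added by 2 days of growth on irradiated E86 producer cells. In the control cultures this virus was MIY, which encodes yellow fluorescent protein, and in the MEIS1-deltaHD cultures it encoded MEIS1 with the homeodomain deleted. The other 6 arrays came from cultures with full-length MEIS1 (MEIS1-WT) or M33-MEIS1, a construct on which the labels give only the name. They serve here to test where MEIS1-deltaHD differed from these constructs. All 12 arrays together also set the level filter, the probe set read for each gene and the estimate of spread. RNA came from sorted cells. The sources used here name neither the sort gate, the time between infection and extraction nor the age of the mice. They also do not say whether replicates came from separate cultures or separate mice. The p-values thus measure the spread between replicate arrays, pooled over the 4 groups, part or all of which may be technical.

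MEIS1 belongs to the TALE class of homeodomain proteins. It binds DNA through its homeodomain and joins PBX and HOX proteins through other parts of the protein, and together with HOX fusion proteins it drives myeloid leukaemia in mice. A form without the homeodomain keeps the region that binds PBX but has lost the domain that contacts DNA. The comparison thus asks what NUP98-HOXD13 cells express when MEIS1 is added in that form.

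The values were Affymetrix signals, scaled by the authors so that the trimmed mean of each array is about 100, and 20015 features were tested with limma. A feature is a gene with 1 symbol or a probe set without one. Differences are given as log2 differences of signal + 16, MEIS1-deltaHD minus control, with the standard error (SE), and passing means an adjusted p below 0.05. In a bulk sample, fewer cells of a type and less RNA per cell cannot be told apart. Over all probe sets before any filter, without the control probe sets of the array, the median signal was 13.4 ± 0.404 (SD, n = 3) with MEIS1-deltaHD and 19.1 ± 2.19 in control. The share of these probe sets, not of the features tested, with a signal under 16 was 53.3% and 45.8%. The actin ratio of 3′ over 5′ signal, a measure of RNA integrity and labelling, was 1.35 ± 0.0523 and 1.501 ± 0.009799, that of Gapdh was 0.819 and 0.783, and the spiked control transcripts averaged, in log2 signal, 9.12 and 9.604. None of these 5 measures overlapped between the groups, each with an exact permutation p of 0.1, the smallest that 3 against 3 can give. Their part in the differences below was not tested. With the arrays as deposited, the median log2 difference over all features was -0.17. It was -0.014 after quantile normalization and 0.13 when each array was scaled to one median, which is called median scaling below.

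MEIS1-deltaHD cultures differed from control in many genes, and the changes of largest size were decreases. Of the 20015 features, 7310 passed (36.5%), of which 2764 were higher with MEIS1-deltaHD (13.8% of those tested) and 4546 lower (22.7%), and 9010 had an unadjusted p below 0.05. The higher share of the calls was 37.8% as deposited, 49.6% after quantile normalization (3061 higher, 3110 lower) and 82.2% after median scaling (5873 higher, 1268 lower). The balance between the directions followed the scaling. Counts of gene lists against control are therefore given below with those after median scaling. Under it 29.3% of all features were higher and 6.34% lower. With a log2 difference of at least 1 added to the test, 172 features were higher (0.859%) and 756 lower (3.78%). With a difference of at least 2, 138 were lower and 0 higher. The arrays of both groups did not overlap for 9636 features (48.1%). In the plot of level against difference the interferon effectors and monocyte markers lie far below 0 and the replication and sterol genes above it.

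**Figure D1:**
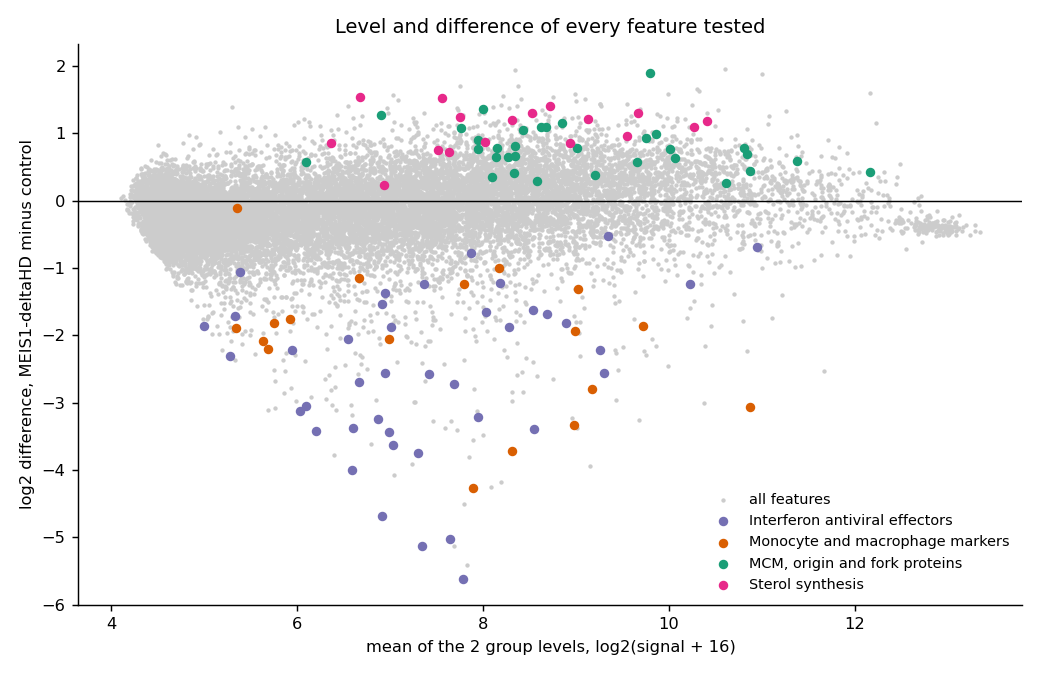
Log2 difference (MEIS1-deltaHD minus control, vertical axis) against the mean of both group levels on the log2(signal + 16) scale (horizontal axis), 1 point for each of the 20015 features, with 4 gene lists in colour. The 41 interferon effectors and 18 monocyte markers lie below 0, and the 32 replication and 17 sterol synthesis genes lie above it.

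Of the 15 genes with 1 symbol that had the largest decreases, most are interferon-stimulated genes, and the others are membrane proteins of phagocytes and a purine receptor. Rtp4, a chaperone of membrane receptors, had signals of 1307, 1702 and 1593 on the control arrays and 11.2, 19.3 and 15.7 with MEIS1-deltaHD. The group ranges lie far apart, and the log2 difference was -5.62 ± 0.151 (SE, limma adjusted p = 2.65e-18). Slfn4, a Schlafen protein of myeloid cells, read 1132, 1663 and 1631 on the control arrays and 18.9, 15.01 and 21.6 with MEIS1-deltaHD, and the difference was -5.42 ± 0.176 (SE, limma adjusted p = 7.54e-17). Usp18, which removes the ubiquitin-like protein Isg15 from its targets and restrains interferon receptor signalling, read 916, 1368 and 1355 on the control arrays and 17.6, 16.1 and 21.97 with MEIS1-deltaHD. Its difference was -5.13 ± 0.167 (SE, limma adjusted p = 7.54e-17). The remaining 12 were Ifit1bl1 (-5.13), Rsad2 (-5.02), Oasl2 (-4.69), Ms4a4c (-4.51), Gpnmb (-4.27), P2rx3 (-4.25), Ifit1 (-4.01), Ifi209 (-3.91), Zbp1 (-3.78), Parp12 (-3.75), Ms4a6d (-3.71) and Cmpk2 (-3.63). The 15 were taken among genes that passed and whose arrays did not overlap between the groups, so neither property is a separate result.

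The 15 genes with 1 symbol that had the largest increases were of several kinds, and among them were genes for DNA replication, lipid synthesis, tubulin and protein folding, in part in the endoplasmic reticulum (ER). Tfrc, the transferrin receptor that brings iron into dividing cells, had signals of 899, 528 and 942 on the control arrays and 2907, 3044 and 3061 with MEIS1-deltaHD, a difference of 1.95 ± 0.127 (SE, limma adjusted p = 1.58e-11). Fen1, the nuclease that trims Okazaki fragments, read 447, 389 and 508 on the control arrays and 1738, 1789 and 1571 with MEIS1-deltaHD, a difference of 1.89 ± 0.0896 (SE, limma adjusted p = 5.25e-14). Ms4a3, a membrane protein of granulocyte and monocyte progenitors, read 1042, 743 and 1433 on the control arrays and 3956, 4094 and 3549 with MEIS1-deltaHD. These 15 were taken by the same rule as the decreases, so the lack of overlap between the groups is no separate result. The others were Sdf2l1 (1.94), Tk1 (1.71), Scd1 (1.70), Tubb4b (1.66), Elane (1.63), Ccne1 (1.57), Tubb6 (1.55), Hsph1 (1.54), Hsd17b7 (1.54), Dhcr7 (1.53), Pgp (1.52) and Fkbp11 (1.49). The probe sets of a gene did not always move together: the next Fkbp11 probe set was dim and differed by -0.11, and dim probe sets of Tubb4b differed by -0.78 to -0.32.

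**Figure D2:**
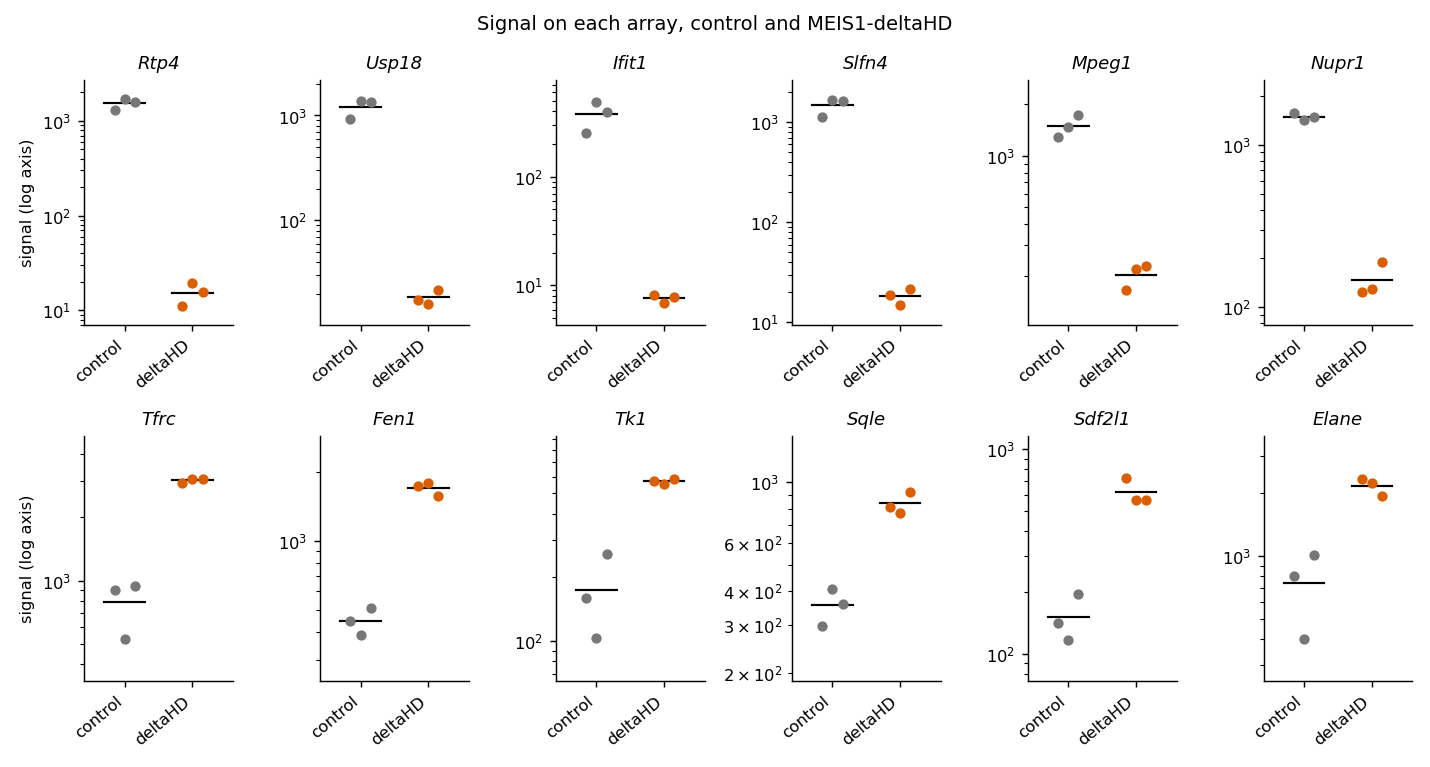
Signal (log axis) of 12 genes on each of the 3 control and 3 MEIS1-deltaHD arrays, with the group mean as a line; the scale differs between panels. The 6 upper genes lie lower on all MEIS1-deltaHD arrays and the 6 lower genes higher on all of them.

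The signal of Meis1 was not higher in the cultures that carried MEIS1-deltaHD. The probe set with the highest signal gave 205, 189 and 168 on the control arrays and 100.1, 109.5 and 120.01 with MEIS1-deltaHD, a difference of -0.69 ± 0.113 (SE, limma adjusted p = 3.01e-05), so the control arrays were the higher ones. Median scaling moved the difference to -0.23 (adjusted p = 0.234). A second Meis1 probe set was also lower (-1.02) and the third did not pass (-0.21). The sources used here do not say whether these probe sets lie in the sequence that the vector carries, so they check neither the vector nor the deletion. Among the partners of MEIS1, Pbx3 was lower as deposited (-0.32) but not after median scaling (0.18), and Pbx2 (0.086) did not pass. Of the 9 tested Hoxa genes, Hoxa7 (0.68) and Hoxa4 (0.59) were higher, Hoxa9 (-0.49) and Hoxa5 (-0.46) were lower, and after median scaling 2 were higher and 0 lower. Of the 14 tested genes linked to Meis1 in leukaemia, 7 were lower and 1, Cd34 (0.64), was higher (2 and 4 after median scaling). Trib2, a pseudokinase, read 10.9, 29.4 and 17.3 on the control arrays and 17.3, 13.05 and 7.77 with MEIS1-deltaHD. Ccl3, a chemokine, read 1693, 1833 and 1476 on the control arrays and 1607, 1739 and 2498 with MEIS1-deltaHD. The groups overlapped for both genes, and neither passed (-0.28 and 0.20).

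Type I interferons bind a pair of receptor chains and activate the kinases Jak1 and Tyk2. These phosphorylate Stat2, which acts with Irf9 in a complex that binds an interferon-stimulated response element (ISRE) in the promoters of many antiviral genes. Many components of the pathway are themselves targets of it, which makes a high level of Irf7, Usp18 or Ifit1 the usual sign of interferon exposure in blood cells. Below the receptors, most of the tested genes of the pathway were lower with MEIS1-deltaHD.

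The ligand Ifnb1 was dim on all arrays, at 13.3, 31.8 and 18.4 on the control arrays and 13.9, 10.7 and 7.89 with MEIS1-deltaHD, and the groups overlapped. Of the receptor chains, Ifnar2 was lower (-0.73), as was Il10rb (-0.52), and Ifnar1 (-0.17), Ifngr1 (0.053) and Ifngr2 (0.16) did not pass. With each kept probe set tested singly, 1 of 2 Ifnar1 probe sets and 1 of 2 Ifngr2 probe sets passed, both as lower. After median scaling 2 of the 6 receptor and ligand genes were higher and 0 lower, so this group has no settled direction. Among 10 sensors of foreign nucleic acid, 5 were lower and none higher (5 after median scaling), with a median of -1.25. Ddx58, the RIG-I helicase, read 512, 717 and 596 on the control arrays and 34.4, 56.2 and 55.9 with MEIS1-deltaHD. Ifih1, the MDA5 helicase, read 556, 864 and 721 on the control arrays and 55.1, 76.1 and 69.2 with MEIS1-deltaHD. Neither gene overlapped between the groups, and the differences were -3.27 and -3.13 (limma adjusted p = 5.25e-14 and 1.12e-14). The adaptors Mavs (-0.24) and Sting1 (-0.22) and the DNA sensor Cgas (-0.29) did not pass, although 1 of 2 Sting1 probe sets tested singly passed as lower.

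Signalling proteins and transcription factors of the pathway were lower in 9 of 11 cases, 0 were higher, and the median was -0.78 (5 lower and 1 higher after median scaling). Irf7, the factor that amplifies interferon production, had signals of 278, 401 and 439 on the control arrays and 19.5, 6.91 and 21.2 with MEIS1-deltaHD, a difference of -3.62 ± 0.224 (SE, limma adjusted p = 6.72e-12). Irf9 read 274, 323 and 285 on the control arrays and 37.8, 42.2 and 48.6 with MEIS1-deltaHD. Stat2 read 150.1, 179.8 and 227 on the control arrays and 35.6, 30.5 and 37.9 with MEIS1-deltaHD. For all 3 genes every MEIS1-deltaHD array was under every control array. Irf3, which is not induced by interferon, did not pass (0.037), nor did Irf8, a factor of monocyte development (-0.13). Of 6 feedback inhibitors 3 were lower and 0 higher (2 and 1 after median scaling). Socs3 (-1.19) and Cish (-0.68) were lower beside Usp18, and Socs1 (-0.33) did not pass.

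All 41 antiviral effectors tested were lower, with differences from -5.62 to -0.52 and a median of -2.31, against a background of 22.7% lower over all features. After median scaling the count was 38 of 41. Ifit1, which binds viral RNA that lacks a methylated cap, read 251, 488 and 392 on the control arrays and 8.22, 6.89 and 7.87 with MEIS1-deltaHD. Rsad2, also named viperin, read 733, 1542 and 1157 on the control arrays and 14.3, 13.96 and 27.8 with MEIS1-deltaHD. Mx1, a GTPase that blocks viral replication, read 132, 226 and 179 on the control arrays and 7.69, 8.399 and 2.06 with MEIS1-deltaHD. None of these overlapped between the groups, nor did Oas3, which makes the activator of RNase L and read 165, 248 and 273 on the control arrays and 3.45, 7.75 and 7.93 with MEIS1-deltaHD. The limma adjusted p-values were 1.57e-12 for Ifit1, 4.48e-15 for Rsad2, 8.82e-12 for Mx1 and 5.1e-13 for Oas3. The smallest decrease was that of Trim25 (-0.52), which did not pass after median scaling. The 9 interferon-induced GTPases (9 lower, median -1.96, 8 after median scaling) and the Schlafen family (7 of 8 lower, median -2.31, 6 after median scaling) were also lower. Gbp2, a GTPase that coats intracellular pathogens, read 216, 295 and 312 on the control arrays and 13.5, 20.3 and 13.8 with MEIS1-deltaHD. Irgm1, a regulator of the immunity-related GTPases, read 496, 801 and 731 on the control arrays and 115, 119 and 123 with MEIS1-deltaHD. The difference was -3.18 for Gbp2 and -2.33 for Irgm1, and the groups overlapped for neither.

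The promoters of 5 of these genes are shown because each holds the core of the ISRE within 150 bases before the RefSeq start site (build GRCm38.p6, on the strand of the gene). The capitals mark each match to GAAANNGAA, where N is any base, or to its reverse complement, and overlapping matches run together.
Ifit1, chr19:34640739-34640888, plus strand: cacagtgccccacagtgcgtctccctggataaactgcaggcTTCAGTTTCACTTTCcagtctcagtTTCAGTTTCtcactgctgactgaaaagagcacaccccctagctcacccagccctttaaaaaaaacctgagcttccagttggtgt
Rsad2, chr12:26456453-26456602, minus strand: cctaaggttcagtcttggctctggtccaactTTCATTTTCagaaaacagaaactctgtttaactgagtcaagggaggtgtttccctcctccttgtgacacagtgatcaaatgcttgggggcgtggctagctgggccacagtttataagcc
Oas3, chr5:120777660-120777809, minus strand: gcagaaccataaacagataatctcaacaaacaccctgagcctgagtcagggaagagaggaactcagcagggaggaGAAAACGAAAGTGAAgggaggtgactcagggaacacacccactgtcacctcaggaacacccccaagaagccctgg
Gbp2, chr3:142620513-142620662, plus strand: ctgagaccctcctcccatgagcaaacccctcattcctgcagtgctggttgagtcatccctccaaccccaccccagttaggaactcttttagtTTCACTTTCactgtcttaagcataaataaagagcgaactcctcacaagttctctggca
Irgm1, chr11:48871421-48871570, minus strand: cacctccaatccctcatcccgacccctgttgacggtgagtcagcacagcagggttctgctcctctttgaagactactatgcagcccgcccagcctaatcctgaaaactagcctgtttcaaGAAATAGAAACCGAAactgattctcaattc
In Ifit1 there were 3 matches, in Oas3 2 and in Irgm1 2. Over 300 bases (250 before to 50 after the start), the motif on either strand was present in 8.56% of all 32851 promoters in the RefSeq table, in 6.99% of those of all genes tested and in 17 of 37 promoters of the antiviral effectors (45.9%). Among genes lower by at least 2 on the log2 scale it was present in 38.1% of 105 promoters, among those lower by at least 1 in 16.9%, and among those higher by at least 1 in 4.64%. The motif was also present in 5 of 14 promoters of the monocyte and macrophage markers (35.7%). A match describes letters in the window and is no measurement of binding.

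Antigen presentation on MHC class I, which interferons also raise, was lower in part. Of 14 genes tested, 7 were lower and 0 higher (5 and 3 after median scaling). The peptide transporter Tap1 read 229, 253 and 319 on the control arrays and 107, 92.04 and 90.05 with MEIS1-deltaHD. The light chain B2m read 4941, 5960.5 and 4819 on the control arrays and 2771, 2956 and 3146 with MEIS1-deltaHD. Their differences were -1.32 and -0.82, with no overlap. The 3 catalytic immunoproteasome subunits Psmb8 (-0.06), Psmb9 (-0.12) and Psmb10 (-0.23) did not pass as deposited, and Psmb8 and Psmb9 were higher after median scaling (0.44 and 0.37). With the probe sets tested singly as deposited, 1 of 2 Psmb8 probe sets passed as lower. The constitutive proteasome went the other way, with 13 of 14 subunits higher (14 after median scaling) and a median of 0.47, against 13.8% higher over all features. Psmb2 (1.05) and Psmb6 (0.89) had the largest increases. Of 9 MHC class II genes 4 were lower and 0 higher (4 and 2 after median scaling). The invariant chain Cd74 read 242, 308 and 267 on the control arrays and 49.8, 47.3 and 71.2 with MEIS1-deltaHD and was lower (-2.01). H2-Aa, H2-Eb1 and H2-Ob were also lower, and Ciita, the class II regulator, did not pass (-0.25).

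**Figure D3:**
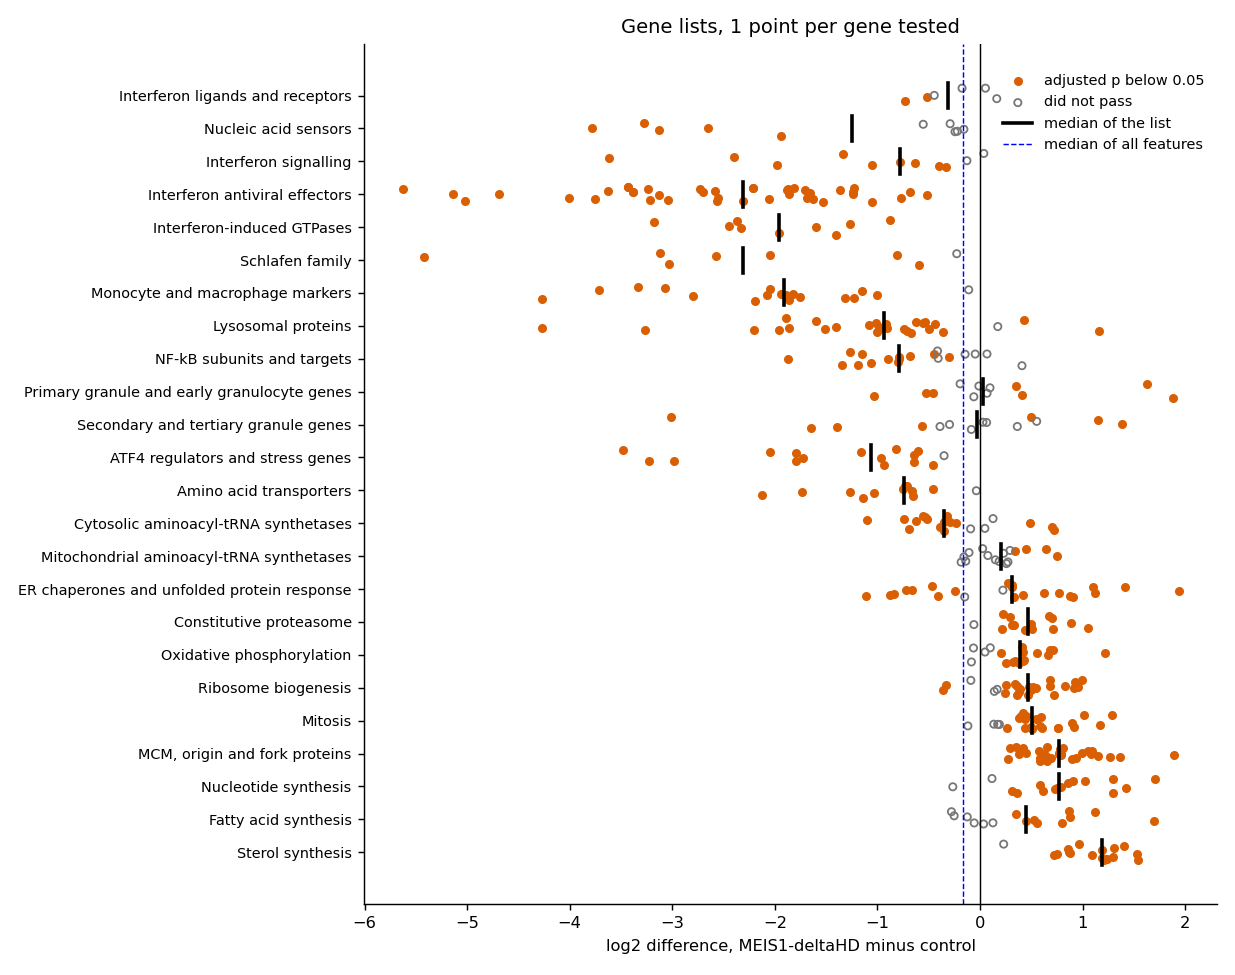
Log2 difference (MEIS1-deltaHD minus control) of every tested gene in 24 lists, 1 point per gene, filled where the adjusted p was below 0.05, with a bar at the list's median and a dashed line at the median of all features (-0.17). The interferon, monocyte and ATF4 lists lie to the left, the granule and ER lists spread to both sides, and the replication and sterol lists lie to the right.

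Monocytes and macrophages are mature phagocytes of the myeloid lineage, and their markers were among the largest decreases. Of 18 markers tested, 17 were lower and 0 higher, with a median of -1.91, and the count was again 17 after median scaling. Csf1r, the receptor for macrophage colony-stimulating factor, read 1521, 1544 and 1707 on the control arrays and 413, 409 and 452 with MEIS1-deltaHD, a difference of -1.87 ± 0.0914 (SE, limma adjusted p = 9.61e-14). Mpeg1, the pore protein perforin-2, read 1286, 1485 and 1743 on the control arrays and 164, 217 and 226 with MEIS1-deltaHD. Lyz2, lysozyme, read 5307, 5527 and 5339 on the control arrays and 621, 613 and 655 with MEIS1-deltaHD. In each of the 3 the control arrays were all above the MEIS1-deltaHD arrays, and the MEIS1-deltaHD signals still exceeded 100. The summed signal of the 18 markers ran from 14271 to 16558 in control and from 2418 to 2729 with MEIS1-deltaHD. The transcription factors Maf (-2.92) and Klf4 (-1.76), which act in macrophages, were lower, and the myeloid factors Spi1 (-0.22) and Cebpa (0.088) did not pass.

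Genes for microbe recognition and digestion were lower as well. Of 17 Toll-like receptor genes and adaptors, 11 were lower and 0 higher (7 and 2 after median scaling), with Tlr2 at -1.51 and Tlr4, the endotoxin receptor, at -1.02, and the shared adaptor Myd88 did not pass (-0.22). Of 16 C-type lectins and related receptors, 11 were lower (10 after median scaling), led by Clec4n (-3.37), also named dectin-2. All 5 IgG Fc receptor genes were lower (3 after median scaling), from Fcgr1 (-2.01) to Fcgr2b (-0.58). In the phagocyte oxidase, the catalytic subunit Cybb read 1018, 1000.1 and 1497 on the control arrays and 214, 203 and 243 with MEIS1-deltaHD, a difference of -2.31 ± 0.1299 (SE, limma adjusted p = 1.18e-12), with no overlap. Its partner Cyba was lower as deposited (-0.25), as was Ncf4 (-0.38), and both turned above 0 after median scaling (0.25 and 0.12). Ncf1 did not pass (0.043).

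Of 28 lysosomal genes, 25 were lower and 2 higher, with a median of -0.94 (16 and 3 after median scaling). The protease Ctss read 2238, 2843 and 2505 on the control arrays and 219, 242 and 286 with MEIS1-deltaHD. Psap, the precursor of saposins, read 2323, 2547 and 3115 on the control arrays and 762, 645 and 740.3 with MEIS1-deltaHD. The groups overlapped for neither gene, with differences of -3.26 and -1.86. Ctse, an aspartic protease of the endosomal system, went against the rest at 179, 122 and 224 on the control arrays and 408, 412 and 379 with MEIS1-deltaHD, a difference of 1.16 ± 0.129 (SE, limma adjusted p = 1.24e-07). Its other probe set, which is dimmer, moved the other way (-0.41, limma adjusted p = 0.0471), so Ctse has no settled direction. The MiT/TFE factors, which switch on lysosomal genes, were divided, with 1 of 4 higher and 2 lower (the same counts after median scaling). Mitf (-0.98) and Tfeb (-0.87) were lower, Tfe3 (-0.17) did not pass and Tfec (0.78) was higher.

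Inflammatory mediators were lower too. Of 19 NF-kB subunits and targets, 13 were lower and 0 higher (7 and 2 after median scaling). Il1b, interleukin-1 beta, read 120.3, 198 and 112 on the control arrays and 24.2, 23.2 and 32.6 with MEIS1-deltaHD, a difference of -1.87 ± 0.235 (SE, limma adjusted p = 8.23e-07), with no overlap. Nfkbiz (-1.27) and the prostaglandin synthase Ptgs2 (-1.19) were lower, and Tnf (0.41) did not pass. Of 16 chemokines 10 were lower and 0 higher (8 and 1 after median scaling), and Ccl2, a monocyte attractant, read 113, 378 and 150.4 on the control arrays and 5.73, 14.04 and 21.3 with MEIS1-deltaHD, a difference of -2.81. Of 21 immediate early and MAPK feedback genes, 12 were lower (7 lower and 4 higher after median scaling). Fos read 753, 961 and 666 on the control arrays and 106, 119.8 and 128 with MEIS1-deltaHD, a difference of -2.58 ± 0.1404 (SE, limma adjusted p = 5.97e-13). Fos did not overlap between the groups, and Jun did not pass (-0.081). Of 18 cytokine receptor chains 14 were lower (7 after median scaling, with 1 higher). Among them were the chains for interleukin-3 and GM-CSF, Csf2rb2 (-0.88), Csf2rb (-0.64) and Csf2ra (-0.68), of which Csf2rb and Csf2ra did not pass after median scaling. Il3ra did not pass (-0.29). Kit, the receptor for the stem cell factor in the medium, read 409.7, 376 and 406 on the control arrays and 312, 298 and 313 with MEIS1-deltaHD, a difference of -0.35 that turned to 0.13 after median scaling. Il1r2, the decoy receptor for interleukin-1, had the largest decrease of this list (-2.13).

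Granulocyte genes split by gene. Elane, neutrophil elastase, read 800.02, 402 and 1016 on the control arrays and 2346, 2234 and 1942 with MEIS1-deltaHD, a difference of 1.63 ± 0.179 (SE, limma adjusted p = 1.07e-07). Its neighbours in primary granules Prtn3 (0.41) and Ctsg (0.35) were higher, and Mpo, myeloperoxidase, did not pass at 6464, 6316 and 6784 on the control arrays and 6563, 6867 and 7099 with MEIS1-deltaHD. Among secondary granule and late genes, Ngp read 48.6, 68.1 and 68.4 on the control arrays and 175, 221 and 163 with MEIS1-deltaHD. S100a9, a subunit of calprotectin, read 341, 257 and 424 on the control arrays and 749, 893 and 657 with MEIS1-deltaHD. The MEIS1-deltaHD arrays of both genes were above all control arrays (1.38 and 1.15). Mmp8, neutrophil collagenase, fell, at 3717, 3840.1 and 3682 on the control arrays and 371, 469 and 526 with MEIS1-deltaHD, as did Lcn2 (-1.65). Ltf, lactoferrin, read 10.7, 14.3 and 8.65 on the control arrays and 20.1, 11.3 and 7.17 with MEIS1-deltaHD, with overlapping groups, and did not pass. In all, 4 of 12 primary granule genes were higher and 3 lower, and 3 of 14 secondary and tertiary granule genes were higher and 4 lower, with medians of 0.029 and -0.027. After median scaling the primary list had 7 higher and 1 lower, and the other list 4 higher and 3 lower.

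Counts for markers of other lineages stand beside shares of 22.7% lower and 13.8% higher over all features as deposited. Those of the erythroid, fibroblast and T and NK cell lists lay near or under these shares, so no direction of these lineages is read from them. Of 13 mast cell and basophil genes 9 were lower and 3 higher (4 and 4 after median scaling). Gzmb, granzyme B, read 984, 1183 and 651 on the control arrays and 225, 201 and 349 with MEIS1-deltaHD, a difference of -1.80 ± 0.169 (SE, limma adjusted p = 8.31e-09). The mast cell protease Cpa3 was lower (-0.77, not passing after median scaling), and the basophil protease Mcpt8 was higher (0.40). Of 14 megakaryocyte genes 9 were lower (3 after median scaling), among them the integrin Itga2b (-0.76, not passing after median scaling), and Pf4 did not pass (-0.40). Of 8 erythroid genes 2, Gata1 (-0.62) and Car2 (-0.35), were lower (0 after median scaling), and 1, Tfrc (1.95), which is not limited to red cells, was higher under both. The summed signal of the 8 was 2207 to 2907 in control and 4237 to 4585 with MEIS1-deltaHD. Tfrc alone had group means of 790 and 3004, and Car2 of 1619 and 1265, so the sum does not stand for the erythroid genes together. Klf1, the erythroid factor, did not pass (0.18), and the globin gene Hba-a1 did not pass the level filter. Of the fibroblast genes, listed because the cultures were grown on producer cells, 1 of 10 passed, also after median scaling. Pdgfrb read 365, 296 and 283 on the control arrays and 157, 142 and 187 with MEIS1-deltaHD, a difference of -0.89. The collagen Col1a1 was dim at 8.96, 18.4 and 8.01 on the control arrays and 5.38, 6.61 and 3.51 with MEIS1-deltaHD, and it did not pass. Of the T and NK cell list 1 of 4 tested was lower (Il7r, -1.62; 1 lower and 1 higher after median scaling), and Cd3e was dim at 9.56, 4.01 and 4.18 on the control arrays and 2.04, 2.63 and 7.07 with MEIS1-deltaHD. Of 19 stem and progenitor regulators, 10 were lower and 1 higher as deposited, and 2 and 7 after median scaling, so no direction is given for that list.

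Genes for DNA replication and cell division were higher in most cases. The 32 tested genes for the MCM helicase, origin recognition and the replication fork were all higher, from 0.27 to 1.89 with a median of 0.77, and all 32 stayed higher after median scaling. After quantile normalization 30 were. Cdc6, which loads the MCM helicase, read 165, 104 and 167 on the control arrays and 391, 387 and 395 with MEIS1-deltaHD, a difference of 1.36 ± 0.116 (SE, limma adjusted p = 1.62e-09). Mcm2, a subunit of that helicase, read 614, 602 and 604 on the control arrays and 1217, 1105 and 1197 with MEIS1-deltaHD. Pcna, the sliding clamp, read 4117, 3736 and 3973 on the control arrays and 5088, 5406 and 5381 with MEIS1-deltaHD. The groups overlapped for none of the 3, and the Pcna difference was 0.42 (limma adjusted p = 9.43e-05). Of 16 nucleotide synthesis genes 14 were higher and 0 lower (15 after median scaling). Tk1, thymidine kinase, read 160.2, 103 and 257 on the control arrays and 575, 550.1 and 584 with MEIS1-deltaHD, and both subunits of ribonucleotide reductase rose (Rrm1 1.43, Rrm2 1.30). Of 24 mitosis genes 20 were higher (24 after median scaling), with a smaller median of 0.50. Birc5, survivin, had the largest difference there (1.29).

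Of 19 regulators of the G1 to S step, 5 were higher and 6 lower (11 and 2 after median scaling). The S-phase cyclins Ccne1 (1.57) and Ccne2 (0.99), the phosphatase Cdc25a (0.81), Cdk4 (0.77) and E2f1 (0.87) were higher. Cdkn1a, the kinase inhibitor p21, read 892, 1176 and 873 on the control arrays and 435, 417 and 556 with MEIS1-deltaHD. Cdkn1b, the inhibitor p27, read 123, 115 and 150.1 on the control arrays and 53.9, 46.5 and 63.4 with MEIS1-deltaHD. Both were lower (-1.04 and -1.04, limma adjusted p = 5.62e-08 and 1.88e-06), with no overlap between the groups. The others that were lower were the inhibitor Cdkn2d (-0.65), the factor E2f2 (-0.56), the retinoblastoma gene Rb1 (-0.55) and the cyclin Ccnd1 (-0.83). Ccnd1 did not pass after median scaling, and Ccnd2 (0.13) and Ccnd3 (0.01) did not pass. With the probe sets tested singly, 1 of 7 Ccnd2 probe sets passed as higher and 1 of 3 Ccnd3 probe sets as lower. Of 9 Bcl-2 family genes 5 were lower and 0 higher (1 and 3 after median scaling). Among pro-apoptotic genes Bbc3, also named Puma (-1.15), and Bmf (-1.21) were lower, as were the survival genes Bcl2 (-0.54) and Mcl1 (-0.45). After median scaling Bcl2 did not pass and Mcl1 turned to 0.055.

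An E2F element, the letters TTTCCCGC on either strand, marks promoters of many replication genes, and the windows of Cdc6 and Gins3 are shown for their single match (150 bases before the start, GRCm38.p6, match in capitals).
Cdc6, chr11:98908001-98908150, plus strand: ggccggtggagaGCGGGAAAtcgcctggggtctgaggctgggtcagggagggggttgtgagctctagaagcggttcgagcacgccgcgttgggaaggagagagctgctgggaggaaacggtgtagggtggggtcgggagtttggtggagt
Gins3, chr8:95633409-95633558, plus strand: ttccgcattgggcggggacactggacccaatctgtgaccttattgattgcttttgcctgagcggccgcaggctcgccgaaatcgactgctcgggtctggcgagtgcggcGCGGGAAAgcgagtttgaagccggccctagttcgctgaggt
This motif was present in 6 of 31 promoters of the replication list (19.4%). It was also present in 2 of 15 promoters of the mitochondrial aminoacyl-tRNA synthetases (13.3%) and in 1 of 16 of the nucleotide synthesis genes (6.25%). The shares were 3.97% for promoters of genes higher by at least 1, 1.8% for those of all genes tested and 1.07% for all promoters.

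Genes for cholesterol synthesis were higher along most of the route. Of 17 sterol synthesis genes, 16 were higher and 0 lower, with a median of 1.19 (17 higher after median scaling), and Tm7sf2 did not pass (0.23). Hmgcs1, which makes HMG-CoA near the start of the route, read 817, 873 and 793 on the control arrays and 1755, 1699.6 and 1902 with MEIS1-deltaHD. Sqle, which oxidises squalene, read 298, 407 and 357 on the control arrays and 812, 776 and 926 with MEIS1-deltaHD. Dhcr7, which acts at the end, read 88.4, 88.9 and 107 on the control arrays and 305, 279 and 328 with MEIS1-deltaHD. The lowest MEIS1-deltaHD array exceeded the highest control array in each, with differences of 1.09 ± 0.0895 (SE, limma adjusted p = 8.35e-10), 1.21 and 1.53. The SREBP factors that switch these genes on were higher (Srebf2 0.54, Srebf1 0.73), as was their brake Insig1 (0.96). The cholesterol exporters Abca1 and Abcg1 went the other way. Abca1 read 123, 98.8 and 121 on the control arrays and 23.8, 20.1 and 29.8 with MEIS1-deltaHD, a difference of -1.69 ± 0.171 (SE, limma adjusted p = 2.85e-08). Abcg1 read 414, 378 and 406 on the control arrays and 146, 121 and 155 with MEIS1-deltaHD, a difference of -1.41. Neither gene overlapped between the groups. Of 15 fatty acid genes 9 were higher and 0 lower (11 after median scaling). The desaturase Scd1 read 123, 44.3 and 157 on the control arrays and 306, 301 and 469.6 with MEIS1-deltaHD, and fatty acid synthase Fasn differed by 0.87. The sterol element ATCACNCCA was present in 0 of 17 sterol synthesis promoters, in 0.591% of those of all genes tested and in 0.868% of all promoters, which says only that these letters are not in those windows.

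Most ATF4 regulators and stress genes were lower, while other groups of the amino acid response had directions that depended on the scaling or differed by gene. ATF4 is a transcription factor whose translation rises when amino acids are short, and with C/EBP partners it binds a composite element in genes for amino acid synthesis, uptake and tRNA charging. Of 16 ATF4 regulators and stress genes, 15 were lower and 0 higher, with a median of -1.06 (11 lower after median scaling). Trib3, a pseudokinase that restrains ATF4, read 803, 986 and 711 on the control arrays and 66.5, 41.5 and 74.9 with MEIS1-deltaHD, a difference of -3.48 ± 0.145 (SE, limma adjusted p = 4.79e-15). Nupr1, a stress-induced nuclear protein, read 1575, 1421 and 1480.3 on the control arrays and 124, 129 and 189 with MEIS1-deltaHD. Atf5, a factor related to ATF4, read 413, 458 and 387 on the control arrays and 35.4, 36.1 and 45.6 with MEIS1-deltaHD. The groups overlapped for none of the 3. The transcript of Atf4 itself differed by -0.46 as deposited and by 0.042 after median scaling.

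Of 12 amino acid transporters 11 were lower (5 lower and 1 higher after median scaling), among them Slc1a4 (-2.13) and Slc7a5, the large neutral amino acid carrier (-1.14). The cystine carrier Slc7a11 read 77.7, 80.6 and 70.3 on the control arrays and 27.3, 26.2 and 34.3 with MEIS1-deltaHD, a difference of -1.03 ± 0.155 (SE, limma adjusted p = 1e-05). Asns, asparagine synthetase, read 2217, 1773 and 2247 on the control arrays and 1080.2, 1087 and 955 with MEIS1-deltaHD, with a difference of -0.98 and no overlap. Cth, which makes cysteine, differed by -2.39. The serine synthesis genes Phgdh (-0.22) and Psat1 (-0.27) passed with small decreases that turned to 0.29 and 0.23 after median scaling, and Psph (-0.11) did not pass. After median scaling 4 genes of the synthesis list were higher and 3 lower, so it has no settled direction. The cytosolic aminoacyl-tRNA synthetases, which charge tRNAs, were lower in 13 of 19 cases and higher in 3 as deposited, and after median scaling 1 was lower and 6 higher. Sars, the seryl-tRNA synthetase, read 1985, 1858 and 1808 on the control arrays and 881, 872 and 860.1 with MEIS1-deltaHD, a difference of -1.10, and Hars was higher (0.72). Of 16 mitochondrial synthetases 0 were lower and 4 higher (12 higher after median scaling). The medians of the cytosolic and mitochondrial lists were -0.35 and 0.21 as deposited and 0.15 and 0.64 after median scaling, so the cytosolic list was the lower one under both.

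The C/EBP-ATF element, TGATGNAA on either strand, is shown in capitals in 3 promoters of this group (150 bases before the start, GRCm38.p6).
Slc7a11, chr3:50443614-50443763, minus strand: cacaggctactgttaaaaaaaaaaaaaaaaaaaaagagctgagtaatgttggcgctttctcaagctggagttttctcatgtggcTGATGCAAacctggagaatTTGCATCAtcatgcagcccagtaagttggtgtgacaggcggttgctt
Asns, chr6:7693210-7693359, minus strand: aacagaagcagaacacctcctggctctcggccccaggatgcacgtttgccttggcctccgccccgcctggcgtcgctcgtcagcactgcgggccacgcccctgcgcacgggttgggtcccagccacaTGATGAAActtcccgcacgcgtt
Nupr1, chr7:126625471-126625620, minus strand: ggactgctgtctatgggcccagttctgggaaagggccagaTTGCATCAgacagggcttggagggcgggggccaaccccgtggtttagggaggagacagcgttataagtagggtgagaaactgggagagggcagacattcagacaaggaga
Slc7a11 held 2 matches in this window. The motif was present in 8 of 39 promoters of the ATF4, synthesis and transporter lists (20.5%), in 5 of 12 of the cytosolic synthetases and in 0 of 15 of the mitochondrial synthetases, a set added after the data were seen. It was present in 3.97% of all promoters, in 2.54% of those of all genes tested and in 0.662% of those of genes higher by at least 1.

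ER genes split. Of 23 genes, 13 were higher and 8 lower (14 and 2 after median scaling). Sdf2l1, a cofactor of the chaperone Hspa5, read 141, 117 and 196 on the control arrays and 728, 563 and 563 with MEIS1-deltaHD, a difference of 1.94 ± 0.125 (SE, limma adjusted p = 1.35e-11). Creld2 (1.42), Dnajc3 (1.12), Dnajb11 (1.10) and Hspa5 (0.33) were also higher, although 1 dimmer Hspa5 probe set was lower (-0.56). The stress sensor Ern1, also named IRE1, read 271, 293 and 252 on the control arrays and 115, 107 and 131 with MEIS1-deltaHD, a difference of -1.11, and Herpud1 (-0.88), Atf6 (-0.84) and Sel1l (-0.72), which act in stress sensing or ER-associated degradation, were lower. Atf6 and Sel1l did not pass after median scaling. Of 20 cytosolic and mitochondrial chaperones 12 were higher and 1, Hspa9, lower (17 and 0 after median scaling). Hsph1, a cofactor of heat shock protein 70, read 242, 235 and 233 on the control arrays and 761, 745 and 662 with MEIS1-deltaHD. The 25 ribosome biogenesis genes were higher in 20 cases and lower in 2 (23 and 0 after median scaling). The 2 were Myc (-0.33) and Npm1 (-0.36), which turned to 0.17 and 0.14 after median scaling. Of 18 respiratory chain genes 14 were higher and 0 lower (18 after median scaling), with a median of 0.39. Of 15 iron genes, Tfrc and Alas1, the first enzyme of haem synthesis (1.19), were higher, and Hmox1, which breaks down haem (-1.05), and the ferritin chain Fth1 (-0.46) were among 5 that were lower. After median scaling 7 were higher and 2 lower. Fth1 turned to 0.049 after median scaling.

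**Figure D4:**
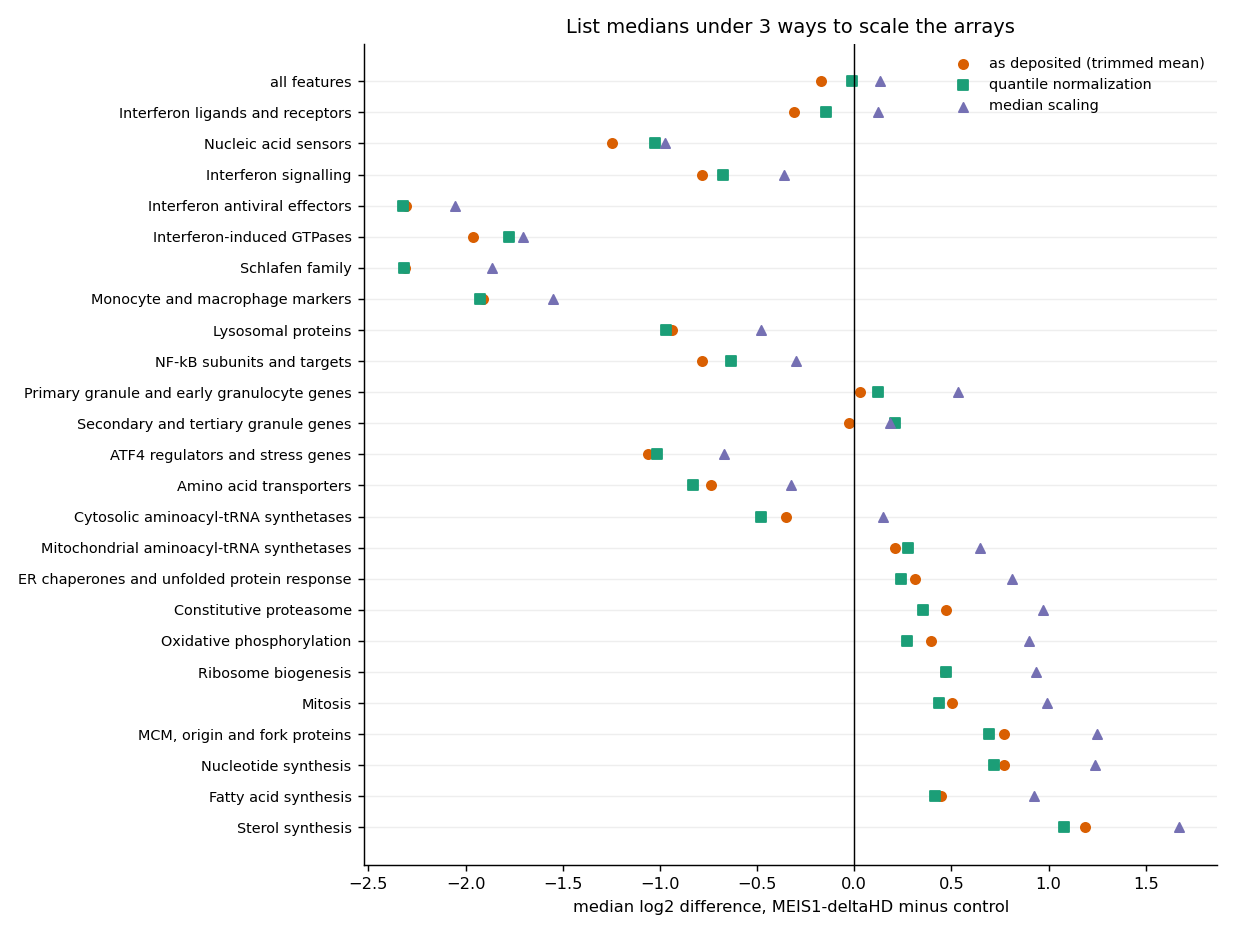
Median log2 difference (MEIS1-deltaHD minus control) of all features and of 24 gene lists with the arrays as deposited, after quantile normalization and after median scaling. Median scaling moves all lists to the right; the interferon effectors and monocyte markers stay below 0, the replication and sterol lists stay above it, and the interferon ligands and receptors, the secondary granule genes and the cytosolic aminoacyl-tRNA synthetases change sides.

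Differences from the other constructs were tested directly, in contrasts from which the control arrays cancel. MEIS1-deltaHD differed from MEIS1-WT in 1050 features (5.25%), 565 higher (2.82%) and 485 lower (2.42%), with 3157 at an unadjusted p below 0.05, and from M33-MEIS1 in 142 (0.709%), 8 higher (0.04%) and 134 lower (0.669%), with 2145 at an unadjusted p below 0.05. These counts depended on single arrays and settings. Without MEIS1-deltaHD replicate 1 the MEIS1-WT counts were 371 higher and 321 lower, without MEIS1-deltaHD replicate 2 the lower count was 302, and after median scaling it was 220. For M33-MEIS1 the lower count was 55 without MEIS1-deltaHD replicate 1, 61 without its replicate 2, 87 without M33-MEIS1 replicate 1, 57 without M33-MEIS1 replicate 3 and 56 after median scaling. The higher count there was 3, 4 and 4 without MEIS1-deltaHD replicate 1, MEIS1-deltaHD replicate 2 and M33-MEIS1 replicate 3. Of the 4546 features lower than control, 299 were lower still than with MEIS1-WT and 228 were higher than with MEIS1-WT. Of the 2764 features higher than control, 154 were higher than with MEIS1-WT and 40 lower. For 88.4% of the 4546 and 93.0% of the 2764 no difference from MEIS1-WT passed, and for 97.5% and 99.7% none from M33-MEIS1. The median differences of MEIS1-WT and M33-MEIS1 from control were -2.27 and -2.28 for the interferon effectors. They were 0.80 and 0.68 for the replication list, and 1.43 and 1.25 for the sterol list. The changes of these 3 lists from control were thus not particular to MEIS1-deltaHD. Other lists also moved the same way with MEIS1-WT and M33-MEIS1. Medians were -2.47 and -1.43 for the monocyte markers, -1.06 and -0.73 for the lysosomal genes and -0.96 and -0.89 for the ATF4 regulators. They were 0.41 and 0.47 for the constitutive proteasome and 0.42 and 0.34 for ribosome biogenesis. Not every list did so, as the mast cell list had -0.56 and 0.33.

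Several monocyte genes stood between control and MEIS1-WT. Csf1r read 1521, 1544 and 1707 in control, 413, 409 and 452 with MEIS1-deltaHD and 34.3, 36.9 and 25.7 with MEIS1-WT, and MEIS1-deltaHD exceeded MEIS1-WT by 3.20 ± 0.0914 (SE, limma adjusted p = 1.17e-17). Cybb read 23.4, 18.4 and 25.3 with MEIS1-WT, and its MEIS1-deltaHD minus MEIS1-WT difference was 2.62. That of Mpeg1 was 2.47. Of 18 monocyte markers 12 were higher with MEIS1-deltaHD than with MEIS1-WT and 0 lower, against 2.82% higher over all features. Irf8 read 282, 240.3 and 359 in control, 255, 264 and 274 with MEIS1-deltaHD and 68.9, 53.04 and 69.5 with MEIS1-WT, a difference between the constructs of 1.82 ± 0.122 (SE, limma adjusted p = 2.06e-10). Of 12 primary granule genes 9 were higher than with MEIS1-WT, and of 14 secondary and tertiary granule genes 7. Against M33-MEIS1 7 of the 18 monocyte markers were lower with MEIS1-deltaHD and 0 higher, against 0.669% lower over all features. List counts between constructs, here and below, are as deposited and were not taken after median scaling. Over all features that scaling moved the lower calls from 485 to 220 against MEIS1-WT and from 134 to 56 against M33-MEIS1.

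Some genes lay on opposite sides of the control with MEIS1-deltaHD and with MEIS1-WT. There were 54 features that passed against control in both constructs with opposite signs and also differed between them (MEIS1-WT passed against control in 32.7% of all features, M33-MEIS1 in 30.7%), and 13 of these 54 also did so after median scaling. Without control replicate 2 there were 35. For each gene named next, M33-MEIS1 passed on the same side of control as MEIS1-deltaHD with the arrays as deposited. Its differences from control were 1.59 for S100a9, 0.82 for Tfec, 1.72 for Ngp and -0.96 for Rgs1. They were -0.65 for Dlk1, -1.26 for Hlf and -0.80 for Flt3. Of these genes only Dlk1 differed between MEIS1-deltaHD and M33-MEIS1 (-0.49). The sides taken were thus not particular to MEIS1-deltaHD. S100a9 read 341, 257 and 424 in control, 749, 893 and 657 with MEIS1-deltaHD and 120.1, 139 and 149 with MEIS1-WT. Every MEIS1-deltaHD array lay above, and every MEIS1-WT array below, the control arrays, and the constructs differed by 2.36 ± 0.12996 (SE, limma adjusted p = 5.33e-12). Tfec (1.86 between the constructs) was also higher than control with MEIS1-deltaHD and lower with MEIS1-WT, as was Ngp (1.88) with the arrays as deposited but not after median scaling. Rgs1, a brake on G protein signalling, read 234, 321 and 165 in control, 77.2, 78.4 and 157 with MEIS1-deltaHD and 607, 499 and 653 with MEIS1-WT. Here the order was the opposite, with the MEIS1-deltaHD arrays the lowest of these 3 groups and a difference between the constructs of -2.38 ± 0.197 (SE, limma adjusted p = 8.29e-09). Dlk1, a membrane ligand related to the Notch ligands, read 226, 248 and 305 in control, 106, 103 and 117 with MEIS1-deltaHD and 1769, 1425 and 1704 with MEIS1-WT, -3.72 ± 0.106 (SE, limma adjusted p = 1.17e-17) between the constructs. The other Dlk1 probe set was dim and differed from control by -0.065, which did not pass. Hlf, a transcription factor of stem cells, read 186, 246 and 158 in control, 97.2, 92.6 and 115 with MEIS1-deltaHD and 427, 416 and 455 with MEIS1-WT. Flt3, a receptor of progenitors, was higher with MEIS1-WT (-1.38 between the constructs), but its position below control (-0.39) was lost without control replicate 1 (limma adjusted p = 0.0738), without control replicate 2 (0.0615) and without MEIS1-deltaHD replicate 3 (0.116), and turned to 0.067 after median scaling.

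Of the 17 sterol genes, 7 were lower with MEIS1-deltaHD than with MEIS1-WT and 0 higher, against 2.42% lower over all features. Mast cell genes set MEIS1-deltaHD apart from M33-MEIS1. Of 13 tested, 9 were lower than with M33-MEIS1 and 0 higher, against 0.669% lower over all features. Cma1, mast cell chymase, read 169.9, 202 and 98.97 in control, 80.4, 43.4 and 96.8 with MEIS1-deltaHD and 289, 252 and 227 with M33-MEIS1, a difference between the constructs of -1.65 ± 0.221 (SE, limma adjusted p = 0.000125). The granzyme Gzmb (-1.92) and the tryptases Tpsab1 (-1.47) and Tpsb2 (-1.33) were lower as well. The signals of Tpsab1 were low, at 8.17, 12.7 and 20.4 with MEIS1-deltaHD.

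A total of 3 features were higher with MEIS1-deltaHD than in each of the other 3 groups, and 23 were lower. The first count was 6 after median scaling and without MEIS1-deltaHD replicate 3, and 2 without MEIS1-deltaHD replicate 1, without its replicate 2 and without M33-MEIS1 replicate 3. The second count was 6 after median scaling, 3 without MEIS1-deltaHD replicate 1, 6 without its replicate 2, 35 without its replicate 3, 13 without M33-MEIS1 replicate 1, 8 without M33-MEIS1 replicate 3, 10 without a filter, 14 with a pseudocount of 64 and 0 with eBayes run without an intensity trend. Of the 3 higher, 2 carried no single symbol. The probe set 1431213_a_at read 2406, 2599 and 2862 in control, 1327, 1295 and 1491 with MEIS1-WT, 7580.4, 7962 and 8269 with MEIS1-deltaHD and 1839, 2016 and 2164 with M33-MEIS1, while 1455869_at had group means of 3200.3 ± 174, 1586 ± 59.9, 7120.4 ± 369 and 2228 ± 113 in that order (mean ± SD, n = 3). The lowest MEIS1-deltaHD array of both lay above all 9 other arrays. The annotation used here names no single gene for them. The third was Atp5g1, a subunit of the ATP synthase ring, with group means of 911 ± 31.2, 1789.6 ± 144, 2342 ± 11.02 and 1818 ± 78.9. Among the 23 lower were Nupr1, at 334, 330.1 and 426 with MEIS1-WT and 212, 209 and 209 with M33-MEIS1, the prion protein gene Prnp, Ndrg1, the actin-severing protein Gsn, the integrin Itga2b and Dlk1. Prnp had group means of 1104 ± 226, 896 ± 50.1, 397 ± 45.6 and 622 ± 25.8 in the same order, and Ndrg1, a stress-responsive gene, 349 ± 17.04, 200.2 ± 28.2, 117 ± 47.2 and 209 ± 9.78.

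**Figure D5:**
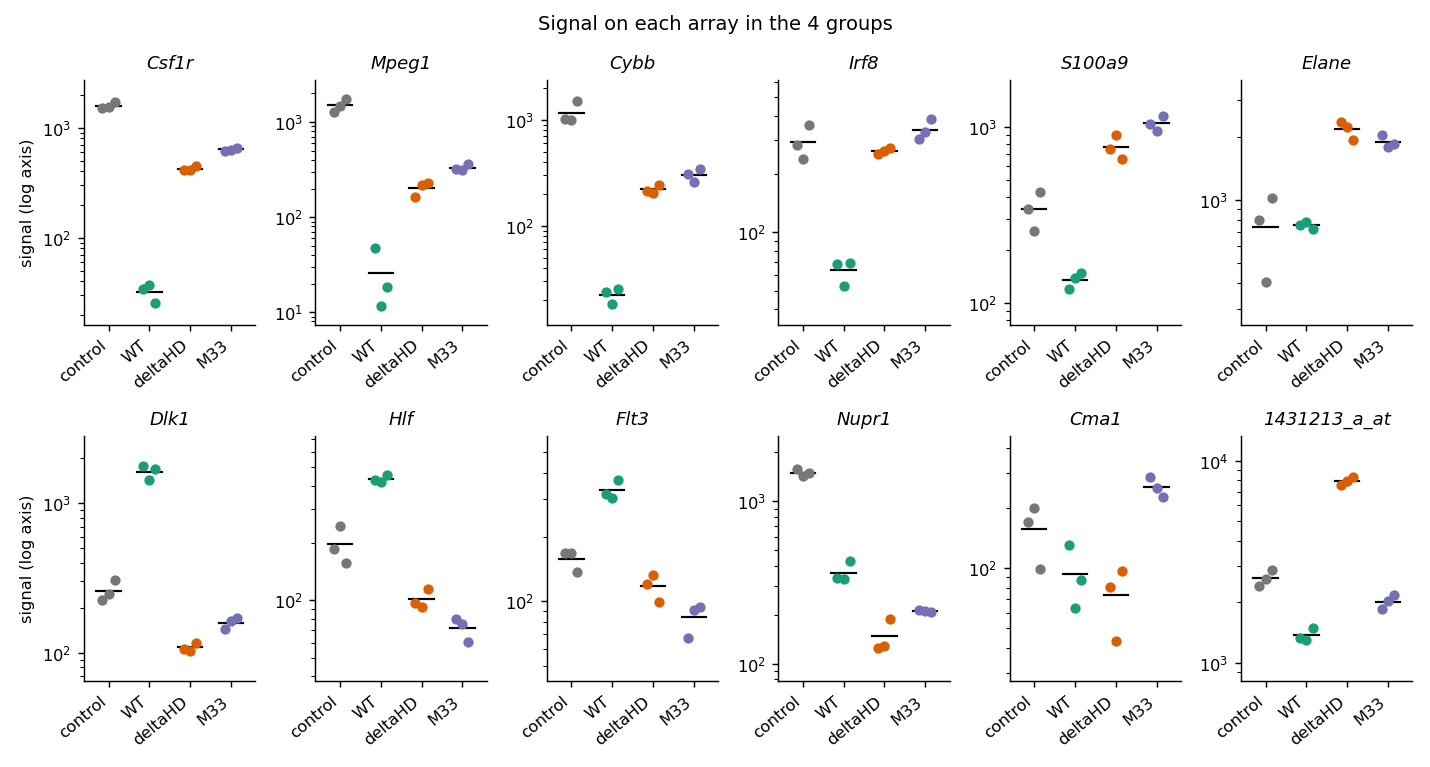
Signal (log axis) of 11 genes and 1 probe set without a single symbol on the 3 arrays of each group, with the group mean as a line. The groups are control, WT (MEIS1-WT), deltaHD (MEIS1-deltaHD) and M33 (M33-MEIS1), and the scale differs between panels. With MEIS1-deltaHD, Csf1r, Mpeg1 and Cybb lie between control and MEIS1-WT, Dlk1 and Nupr1 are the lowest of the 4 groups, and 1431213_a_at is the highest.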

How the data were processed

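RNA of mouse cultures was measured on 12 Affymetrix arrays. The deposited values are signal intensities on a linear scale, 1 for each of 45101 probe sets (64 of them controls) and array, made by the authors with GCOS 1.2 per the submitters' processing notes. The trimmed mean of every array is about 100. The sources used here give no detection calls and no settings of background correction or summarisation. Replicate arrays were grouped by the sample titles, and no array was left out.

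From there, 16 was added and log2 taken, which understates changes of dim probe sets. Probe sets above the 40th percentile of their array on at least 3 arrays were kept (31762). The platform annotation gave 34945 probe sets 1 symbol, 932 several and 9160 none. A gene was read by its kept probe set with the highest mean, and probe sets without 1 symbol stood alone (14024 genes and 5991 probe sets). The 4 group means were fitted with limma 3.58.1 in R 4.3.3 (empirical Bayes with an intensity trend, 8 residual degrees of freedom, two-sided), with Benjamini-Hochberg adjustment over all 20015 features. The deposited signals hold no counts, so the number of arrays limits the precision. Log2 differences between constructs came from the same fit. The script was tested on simulated data made from these arrays: for the comparison with control it recovered 97% of genes changed by 2 on the log2 scale, 68.7% at 1 and 28.8% at 0.5. Only 66 or 67 of 20015 features were changed at each size, with independent noise and no shift between arrays, and 7 unchanged features passed. In the data 36.5% of features passed and the array medians differed, so these rates check the script and do not carry over to this comparison.

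The genes named are the 15 highest and 15 lowest against control, marked and leading members of 64 gene lists (868 of 1008 entries tested), and the leading genes against the other constructs and on opposite sides of control. The 15 highest and 15 lowest were taken among genes that passed and whose arrays did not overlap between the groups. Atf6, Cdc25a, Cdk4, Cdkn2d, Csf2ra, Csf2rb, Csf2rb2, Ctse, E2f2, Herpud1, Kit, Ndrg1, Npm1, Oas3, Prnp, Psph, Rb1, Sel1l, Trim25 and Tubb1, outside this rule, and probe sets of Fkbp11, Tubb4b, Hspa5 and Ctse were chosen after their values were seen. The same holds for the single probe sets of Ifnar1, Ifngr2, Sting1, Psmb8, Ccnd2 and Ccnd3. The comparison, the lists and the rule were chosen with earlier results of these data known, so lists are described by counts and medians beside those of all features. Alternatives covered the scaling, pseudocount, filter, probe sets, samples in the fit, trend, replicate block and left-out arrays. The replicate numbers carry no stated pairing. Promoter sequences came from RefSeq (GRCm38.p6).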

Additional observations from a re-analysis of the deposited data

Results flagged for a closer look

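Some features lay on opposite sides of the control with MEIS1-deltaHD and with MEIS1-WT, with a direct difference between the constructs of at least 2 on the log2 scale (MEIS1-deltaHD minus MEIS1-WT, limma adjusted p below 0.05). Higher with MEIS1-deltaHD were 1431213_a_at (2.52), S100a9 (2.36), 1455869_at (2.15) and S100a8 (2.01), the partner of S100a9 in calprotectin. S100a8 read 918, 628 and 1301 in control, 1233, 1507 and 1153 with MEIS1-deltaHD and 331, 279 and 315 with MEIS1-WT, and its difference from control missed the threshold when control replicate 2 (limma adjusted p = 0.143) or MEIS1-deltaHD replicate 2 (0.0896) was left out. Lower with MEIS1-deltaHD were Dlk1 (-3.72), Ddx4, a helicase of germ cells (-2.99), and Rgs1 (-2.38). Against control, M33-MEIS1 passed on the side of MEIS1-deltaHD for S100a9 (1.59), S100a8 (0.85), Dlk1 (-0.65), Ddx4 (-0.56) and Rgs1 (-0.96). It passed on the side of MEIS1-WT for 1431213_a_at (-0.38) and 1455869_at (-0.52). Ddx4 read 40.5, 77.6 and 35.5 in control, 29.4, 24.4 and 28.01 with MEIS1-deltaHD and 322, 349 and 309.97 with MEIS1-WT, and its difference from control missed the threshold after quantile normalization (limma adjusted p = 0.127), after median scaling (0.342) and without control replicate 2 (0.123).

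A total of 5 features lay on opposite sides of the control with MEIS1-deltaHD and with M33-MEIS1 and differed between them. The mast cell genes Cma1 (-1.65) and Tpsab1 (-1.47) and the probe set 1425145_at (-1.06) were lower with MEIS1-deltaHD than with M33-MEIS1, and 1431213_a_at (1.98) and 1455869_at (1.67) were higher. The annotation used here names no single gene for the 3 probe sets.

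The arrays also carry control probe sets for the transferrin receptor, which were outside all tests above. Their differences from control were 2.36 for the 3′ segment, 2.32 for the middle and 2.14 for the 5′ segment, with all MEIS1-deltaHD arrays above all control arrays (exact permutation p = 0.1 for each, the smallest that 3 against 3 can give). The Tfrc probe set in the tests differed by 1.95.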

How the results depend on the processing

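Against control, the counts of 2764 higher and 4546 lower stayed within 1.5 times in all alternatives except median scaling (5873 and 1268). Leaving out 1 array gave 2443 to 2635 higher and 3736 to 4348 lower. Of the 7310 calls, 74.4% kept direction and call after quantile normalization and 55.2% after median scaling, where 26 passed the other way. Against MEIS1-WT (565 higher, 485 lower), leaving out 1 array gave 371 to 471 higher and 302 to 447 lower, eBayes without a trend gave 324 and 280, and median scaling gave 220 lower. Against M33-MEIS1 (8 higher, 134 lower), leaving out 1 array gave 3 to 11 higher and 55 to 128 lower, median scaling 14 and 56, no filter 5 and 83, eBayes without a trend 5 and 26, and a fit of only the 2 groups 18 higher. The direction of Atf4 (0.042), Car2 (0.15), Cyba (0.25), Flt3 (0.067), Fth1 (0.049), Hoxa9 (0.015), Kit (0.13), Mcl1 (0.055), Myc (0.17), Ncf4 (0.12), Npm1 (0.14), Pbx3 (0.18), Phgdh (0.29), Psat1 (0.23), Psmb8 (0.44) and Psmb9 (0.37) turned after median scaling. The direction of Ctse (-0.41) and Fkbp11 (-0.11) turned without shared probe sets. The cause of these shifts was not tested. The replicate numbers did not pair the arrays: deviations of control and MEIS1-deltaHD arrays with the same number correlated by at most 0.0141 over features, and a fit with the number as a block gave 2728 higher and 4470 lower. No detection calls were used, and differences of signals below the pseudocount of 16 are understated.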

Other observations

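Groups outside the comparisons above also held differences between MEIS1-deltaHD and control. Of 13 purinergic receptors of the P2X and P2Y families, 8 were lower and 0 higher (7 and 1 after median scaling). P2rx3, an ATP-gated channel better known from sensory neurons, read 1178, 1344 and 999.7 on the control arrays and 40.6, 47.9 and 50.4 with MEIS1-deltaHD. P2ry6, a receptor for uridine diphosphate, differed by -1.37, and P2rx7, the ATP-gated channel of macrophages, by -0.97. Of 8 complement genes 7 were lower (5 after median scaling), with the receptor C3ar1 at -1.77 and factor B, Cfb, at -1.65. Of 12 leukocyte integrins 8 were lower and 0 higher (5 and 2 after median scaling). Itgam, the CD11b chain, read 197, 243 and 238 on the control arrays and 74.6, 61.98 and 72.6 with MEIS1-deltaHD, and Itgb1 did not pass (0.23). Of 6 chemokine receptors, Ccr1 (-1.80), Ccr2 (-1.32) and Ccrl2 (-1.02) were lower and the others did not pass (3 lower and 1 higher after median scaling). All 4 tested members of the Ifi200 family were lower (3 after median scaling), with Ifi204 at -2.78, and 5 of 6 Ifitm genes were lower (1 lower and 1 higher after median scaling).

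Tubulins were mostly higher. Of 11 tubulin genes 7 were higher and 1 lower (7 and 0 after median scaling), and the lower one was Tubb1 (-0.72), the tubulin of platelets. Tubb6 read 159, 133 and 182 on the control arrays and 502, 472 and 499.5 with MEIS1-deltaHD, with no overlap. Of 20 hypoxia and glycolysis genes 10 were higher and 2 lower (15 and 1 after median scaling). Egln3, a prolyl hydroxylase that acts on HIF proteins, read 279.7, 278 and 310.2 on the control arrays and 807, 824 and 888 with MEIS1-deltaHD, a difference of 1.49 ± 0.0754 (SE, limma adjusted p = 1.67e-13). The glycolytic enzymes Tpi1 (1.14), Pfkl (1.10) and Ldha (0.71) were higher, while Vegfa, a vascular growth factor often raised in hypoxia, read 171, 230.02 and 183 on the control arrays and 60.2, 53.5 and 92.1 with MEIS1-deltaHD and was lower (-1.33). Of 12 p53 targets 2 were higher and 5 lower (7 and 3 after median scaling), so that list has no settled direction. Of 4 B cell genes 2, of 5 dendritic cell genes 3 and of 4 eosinophil genes 1 were lower as deposited, and 0, 1 and 0 after median scaling. Over all features 22.7% were lower as deposited and 6.34% after median scaling.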
